A study of Mus musculus with 4 samples.

Results

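Chemokine receptors are G protein-coupled receptors that steer T cells along gradients of chemokines, and which of them a CD8 T cell carries helps to set where it can go. CXCR3 and CXCR6 are known for bringing T cells into inflamed tissue and tumours, CXCR5 for bringing lymphocytes to B cell follicles, CXCR4 for retention near cells that make CXCL12, and CCR2 and CX3CR1 for effector cells on their way to inflamed tissue or in blood vessels. In exhausted CD8 T cells of mice, CXCR5 is known as a mark of progenitor cells and CX3CR1 and CXCR6 of more differentiated ones. The 6 genes Cxcr3, Cxcr4, Cxcr5, Cxcr6, Ccr2 and Cx3cr1 were picked by name, out of 32285 genes in the deposited matrices, and all 6 were found in every library.

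The cells were CD44+CD90.1+CD8+ T cells sorted from lymph nodes that drained a tumour, 14 days after the tumour was placed in C57BL/6 mice. CD44 marks T cells that have met antigen, and CD90.1 is a variant of Thy1 widely used to tell donor from host T cells. One group, C6M9, is labelled with low affinity GP33, and the other, M9, with high affinity GP33; GP33 is the name of a peptide of a viral glycoprotein, and the labels give no further genotype, sex or treatment. Each group has 2 libraries (10x Genomics 3′ chemistry), with cells of 35 C6M9 mice and 10 M9 mice pooled by group. Which mouse a cell came from is not known and libraries of a group may share mice, so p-values measure the spread between libraries, which may be technical. Of 11113 barcodes, 9920 T cells were analysed: 2889 and 1733 in C6M9 and 4099 and 1199 in M9, with 67672214 and 60574508 UMIs in C6M9 and 71615253 and 32311461 UMIs in M9. A UMI is a tag that counts 1 captured RNA molecule.

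Checked against marker genes, UMIs of Cd3e were seen in 99.7% to 99.8% of T cells, of Cd8b1 in 99.0% to 99.6%, and of Cd4 in 1.94% and 2.31% of C6M9 cells and 2.90% and 2.84% of M9 cells. Of the sort markers, Cd44 was seen in 63.3% and 73.3% of C6M9 cells and 69.5% and 81.7% of M9 cells, and Thy1 in 74.6% and 82.7% of C6M9 cells and 61.3% and 77.98% of M9 cells; the CD90.1 variant cannot be read from gene counts. Trdc, the constant gene of the delta chain of gamma delta T cells, was seen in 76.4% and 81.8% of C6M9 cells and 74.1% and 77.7% of M9 cells, and a list of 6 gamma delta T-like genes summed to 391 and 417 CPM in C6M9 and 406 and 403 CPM in M9. Clusters gave 7 classes of T cells, and their shares differed widely between the groups. Memory-like cells made up 24.4% and 22.8% of C6M9 libraries, against 2.61% and 4.50% of M9 libraries. Cells of a cluster led by Izumo1r, which no marker list named, made up 5.30% and 5.89% of C6M9 libraries, against 40.0% and 30.9% of M9 libraries. TCR-activated-like cells were 4.60% and 6.69% in C6M9 and 24.6% and 19.2% in M9. The other classes were interferon-like, effector-like and cycling-like cells and a small cluster led by Gzma, which encodes a granule protease of killer cells. The line between memory-like and interferon-like cells depended on the clustering: 44.2% of interferon-like cells kept that name at a finer resolution of 1.0. The libraries shared 7 barcodes over all pairs.

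Cxcr6 and Ccr2 lie near each other on chromosome 9 (GENCODE M21, GRCm38). Cxcr6 spans positions 123806475 to 123811760 on the plus strand and Ccr2 spans 124101950 to 124113557 on the plus strand, and the 307 kb between their outer ends hold 6 protein-coding genes in full: Cxcr6, Xcr1, Ccr1, Ccr1l1, Ccr3 and Ccr2, genes of chemokine receptors or, for Ccr1l1, of a relative. Cx3cr1 (119901616 to 120069879, minus strand) and Cxcr5 (44511787 to 44561877, minus strand) are on the same chromosome. Cxcr4 is on chromosome 1 (128588199 to 128592293, minus strand) and Cxcr3 on the X chromosome (101731535 to 101734269, minus strand). Cxcr6 lies inside Fyco1 and Cxcr5 overlaps Bcl9l, both on the other strand, and Cx3cr1 overlaps 9 annotated genes. Whether strand was used in counting is not given in the sources used here, so it is not known whether reads of overlapping genes were kept apart. Fyco1 had 19.36 and 19.98 CPM in C6M9 and 21.24 and 26.96 CPM in M9, and Bcl9l had 53.3 and 57.5 CPM in C6M9 and 35.1 and 42.7 CPM in M9, so neither ran in the direction of its receptor neighbour.

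The bases upstream of the first annotated transcript base are shown for Cxcr6, the receptor with the most calls within classes, and for Cxcr3, which made none, as a pair to compare (RefSeq, GRCm38.p6; Cxcr6 at chr9:123806227-123806474, plus strand, and Cxcr3 at chrX:101734270-101734397, minus strand). Capitals mark matches to 4 motifs searched on both strands: the Tcf/Lef core CTTTGA, the Runx core TGTGGT, the T-box motif TCACACC and the E-box CAGGTG. The motifs were chosen with the sequences in view.
Cxcr6: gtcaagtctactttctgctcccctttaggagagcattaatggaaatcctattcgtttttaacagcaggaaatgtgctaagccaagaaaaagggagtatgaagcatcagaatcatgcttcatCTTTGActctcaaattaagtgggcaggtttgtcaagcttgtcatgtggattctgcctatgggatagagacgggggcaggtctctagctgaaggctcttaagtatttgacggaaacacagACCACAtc
Cxcr3: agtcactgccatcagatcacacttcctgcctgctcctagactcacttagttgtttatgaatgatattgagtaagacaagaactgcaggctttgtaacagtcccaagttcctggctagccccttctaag
The Cxcr6 stretch of 248 bases held CTTTGA once and ACCACA, the reverse complement of the Runx core, once. Of 32851 RefSeq promoters cut to the same window, 13.8% held the Tcf/Lef core and 14.0% the Runx core. The Cxcr3 stretch of 128 bases held none of the 4 motifs, which 1.79% to 9.29% of promoters hold in that window. A match describes letters and is not a binding site.

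Over all T cells, Cxcr6 was higher and Cxcr5 lower in C6M9 than in M9, and the other 4 receptors were not called. Cxcr6 is the receptor for CXCL16, a membrane-bound chemokine of dendritic cells and macrophages. It had 42.2 and 42.8 UMIs per 1000000 UMIs (CPM) in C6M9 libraries, against 28.7 and 25.6 CPM in M9 libraries. Both C6M9 libraries lay above both M9 libraries, by a log2 difference of 0.72 ± 0.10 (SE, n = 2 libraries each, adjusted p = 0.0080, edgeR's quasi-likelihood test). Cxcr5, the receptor for the follicle chemokine CXCL13, had 12.7 and 14.7 CPM in C6M9 libraries, against 27.7 and 26.5 CPM in M9 libraries. The groups did not overlap, and Cxcr5 fell by 0.91 ± 0.10 on the log2 scale (SE, n = 2 libraries each, adjusted p = 0.0040, edgeR's quasi-likelihood test). Among all 13652 genes tested, 5.9% were called, 1.68% as higher and 4.22% as lower in C6M9, and 55.3% had groups that did not overlap, so the 2 called receptors of 6 are read against those shares. The number of genes called, 805, depended on the libraries: it was 316 when C6M9 replicate 1 was left out and 497 when C6M9 replicate 2 was. Leaving out M9 replicate 1 gave 1725 genes and leaving out M9 replicate 2 gave 1385, and Cxcr6 and Cxcr5 were called in each of these. A summed level cannot tell fewer cells with the RNA from less RNA per cell.

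Cxcr3, the receptor for the interferon-induced chemokines CXCL9 and CXCL10, had 111 and 99.2 CPM in C6M9 libraries and 85.9 and 89.6 CPM in M9 libraries. Its groups did not overlap, but the log2 difference of 0.34 ± 0.09 missed the threshold (SE, n = 2 each, adjusted p = 0.0661, edgeR's quasi-likelihood test). Without M9 replicate 1, Cxcr3 was called at 0.38 (adjusted p = 0.0307, edgeR's quasi-likelihood test). Cxcr4, the receptor for CXCL12, had 18.13 and 16.95 CPM in C6M9, between the 14.4 and 19.3 CPM of M9. The interval of its log2 difference ran from -0.14 to 0.44. Ccr2, the receptor for CCL2, had 15.9 and 12.1 CPM in C6M9 and 14.9 and 9.53 CPM in M9. Its value rested on which M9 library was used: the log2 difference was 0.24 ± 0.22 with both, -0.05 without M9 replicate 2, and 0.70 and called without M9 replicate 1. Cx3cr1, the receptor for the tethered chemokine CX3CL1, was sparse, with 1.98 and 2.29 CPM in C6M9 and 2.82 and 2.10 CPM in M9. Its log2 difference had an interval from -0.65 to 0.34, and no change was detectable at this depth.

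**Figure D1:**
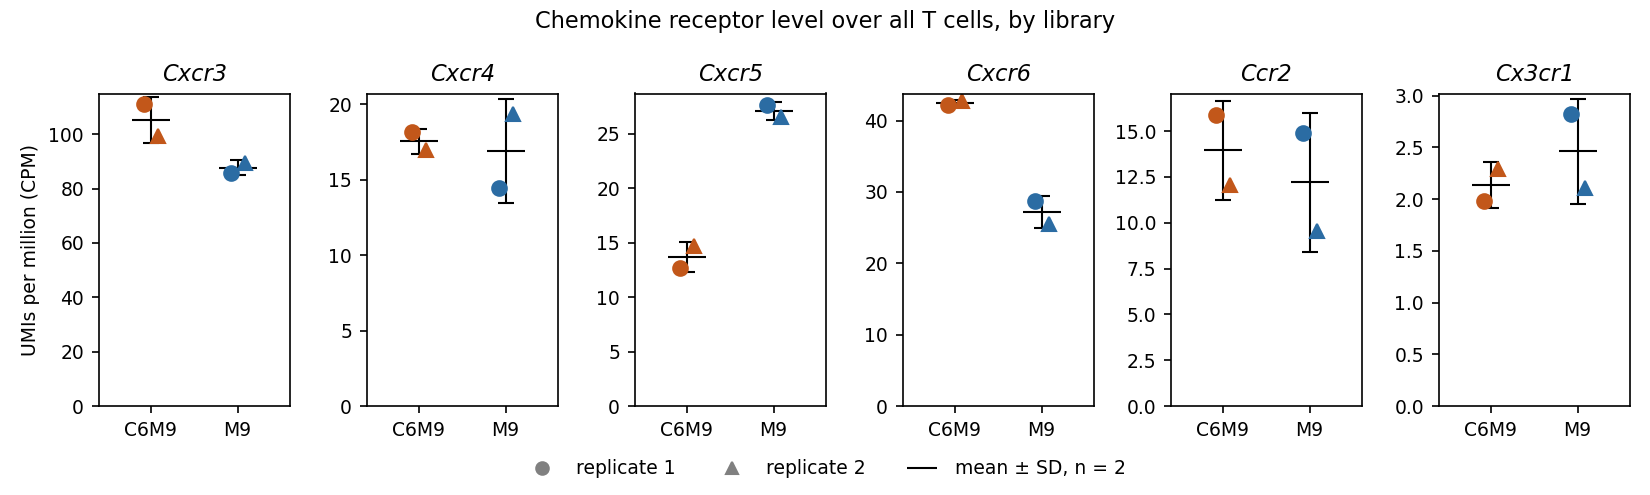
Level of each receptor over all T cells, in UMIs per 1000000 (CPM, linear axes from 0), with 1 point per library (circle replicate 1, triangle replicate 2) and bars for mean ± SD of 2 libraries. Cxcr6 sits at 42.2 and 42.8 CPM in C6M9, above the 28.7 and 25.6 CPM of M9, and Cxcr5 at 12.7 and 14.7 CPM in C6M9, below the 27.7 and 26.5 CPM of M9.

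Because the mix of classes differed between the groups, levels were also computed with the same class weights in every library. With equal weights, Cxcr6 had 36.6 and 36.7 CPM in C6M9, against 29.7 and 32.9 CPM in M9, and its log2 ratio was 0.23, beside 0.65 unweighted. Cxcr5 had 20.4 and 20.3 CPM in C6M9, against 25.5 and 27.7 CPM in M9, and its log2 ratio was -0.39, beside -0.98 unweighted. Both receptors thus kept their direction and lost most of the size of the difference. Cxcr3 changed less, to 0.22 from 0.26 on the log2 scale. The weighted log2 ratio was 0.09 for Ccr2 (0.19 unweighted), -0.0045 for Cxcr4 (0.05 unweighted) and -0.68 for Cx3cr1 (-0.20 unweighted). The weighted values carry no test. They include Gzma-led cells at a weight of 3.24%, with 14 of these cells in M9 replicate 2. In Gzma-led cells Cxcr6 (means of 91.7 CPM in C6M9 and 156 CPM in M9) and Ccr2 (79.7 and 157 CPM) ran the other way. Weighted levels without Gzma-led cells were not computed.

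Cells with at least 1 UMI of a receptor were counted after every cell had been thinned to 2000 UMIs, so that depth was equal. Cxcr6 was seen in 7.27% and 7.77% of C6M9 cells, against 3.52% and 4.86% of M9 cells, and Cxcr5 in 3.01% and 3.65% of C6M9 cells, against 6.41% and 5.28% of M9 cells. Cxcr3 was seen in 20.5% and 17.3% of C6M9 cells and 16.0% and 15.2% of M9 cells. Ccr2 was seen in 2.11% and 1.97% of C6M9 cells and 1.83% and 1.51% of M9 cells. For these 4 receptors the groups did not overlap, and 2 against 2 libraries cannot give an exact permutation p below 0.3333, the value reached. By CPM over all T cells, 55.3% of 13652 genes had groups that did not overlap, and that share was not computed for thinned cells. For Ccr2 the groups were apart at 2000 UMIs but not at 1000, with 0.900% and 1.04% in C6M9 and 1.24% and 0.751% in M9. Nor were they at 4000, with 3.096% and 2.15% in C6M9 and 3.12% and 2.45% in M9. At both of those depths the groups overlapped and the mean was lower in C6M9. Shares of Cxcr4 (3.637% and 3.304% in C6M9, 3.301% and 3.350% in M9) and Cx3cr1 (0.312% and 0.522% in C6M9, 0.318% and 0.251% in M9) overlapped. Without thinning, Cxcr6 was seen in 32.7% and 39.2% of C6M9 cells and 16.9% and 22.9% of M9 cells.

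B cell-like cells served as the type that should lack the T cell receptors. Over all 127 B cell-like cells, Cxcr3 was seen at 2000 UMIs in 15.6% and 12.2% in C6M9 and 6.90% and 0% in M9. Cxcr6 had 64.7 and 38.8 CPM there in C6M9 and 22.5 and 33.5 CPM in M9. Of these cells, 63 were picked for low T cell RNA, a choice that itself favours cells without these receptors. Among the 63, 0 had a Cxcr3 or Cxcr6 UMI at 2000 UMIs, which allows a share of up to 4.76% (counting error only). Cxcr5 and Cxcr4, which B cells carry, were seen there, with Cxcr5 in 10.0% and 19.0% of such cells in C6M9 and 26.7% and 28.6% in M9. Ccr2 had 25 and 26 UMIs in such cells of C6M9 (246 and 172 CPM, above its level over T cells) and 0 UMIs in those of M9, and Cx3cr1 had 5 and 4 UMIs in C6M9 and 0 in M9. These cells therefore gave no background for Ccr2 and Cx3cr1. Ccr9 had 14 and 8 UMIs in such cells of C6M9 and 0 in those of M9, and whether all 63 were B cells was not tested. B cell genes moved little between the groups: 12 markers summed to 342 and 368 CPM in C6M9 and 312 and 311 CPM in M9, with none at 0. Without T cells that held a UMI of 6 B cell genes, Cxcr5 was lower by -1.01 and Cxcr6 higher by 0.81 on the log2 scale, both called. A list of 6 CD4 T-like genes, which holds Izumo1r, summed to 43.5 and 60.2 CPM in C6M9 and 167 and 123 CPM in M9, the direction of Cxcr5, with none at 0. Cd4 itself was at 1.17 and 1.06 CPM in C6M9 and 3.17 and 2.35 CPM in M9, and its part in the Cxcr5 result was not tested.

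The classes ordered the receptors differently. Cxcr5 was highest in Izumo1r-led cells, with 47.2 and 39.6 CPM in C6M9 and 56.1 and 61.7 CPM in M9, and lowest in Gzma-led cells, with 3.46 and 6.32 CPM in C6M9 and 5.87 and 5.42 CPM in M9. Cxcr6 ran close to the opposite way, lowest in Izumo1r-led cells, with 5.45 and 10.0 CPM in C6M9 and 7.60 and 8.56 CPM in M9. Its highest levels were in Gzma-led cells, with 85.0 and 98.5 CPM in C6M9 and 176 and 137 CPM in M9, followed by effector-like cells, with 83.2 and 56.1 CPM in C6M9 and 80.1 and 72.2 CPM in M9. In M9 the order below these was memory-like, interferon-like, TCR-activated-like and cycling-like cells, and the interferon-like and TCR-activated-like libraries overlapped. In C6M9, TCR-activated-like cells came before interferon-like cells and overlapped with both neighbours in the order.

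Ccr2 was highest in Gzma-led cells, with 82.8 and 76.7 CPM in C6M9 and 158 and 155 CPM in M9. Izumo1r-led cells came next, with 24.2 and 13.6 CPM in C6M9, where they overlapped with effector-like cells, and 10.97 and 12.61 CPM in M9. In memory-like cells Ccr2 had 1.84 and 1.04 CPM in C6M9, and 0 UMIs in the 107 and 54 cells of M9, which allows up to 3 UMIs in each. Ccr2 was among the 10 leading genes of the Gzma-led cluster although no chemokine receptor was used to form clusters. Cx3cr1 was also highest there, with 6.30 and 10.98 CPM in C6M9 and 19.9 and 3.25 CPM in M9, the last of these from 3 UMIs in 14 cells, and in M9 it overlapped with effector-like cells.

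Cxcr3 was high in effector-like cells, with 161 and 148 CPM in C6M9 and 132 and 133 CPM in M9. Its lowest class in C6M9 was TCR-activated-like cells, with 77.8 and 65.2 CPM, and in M9 memory-like cells, with 61.9 and 71.5 CPM. Cxcr4 was highest in Gzma-led cells, with 34.8 and 31.4 CPM in C6M9 and 28.9 and 41.2 CPM in M9, where they overlapped with effector-like cells, and lowest in TCR-activated-like cells, with 3.50 and 6.73 CPM in C6M9 and 3.36 and 5.05 CPM in M9. Among cycling-like cells, Cxcr4 had 28.0 and 24.3 CPM (C6M9) and 21.7 and 32.0 CPM (M9) in the cluster led by the S phase histone Hist1h2ap. In the Ccnb2-led cluster, which carries genes of mitosis, it had 12.3 and 11.7 CPM in C6M9 and 13.8 and 16.2 CPM in M9. These orders describe clusters made from the same cells and carry no test.

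**Figure D2:**
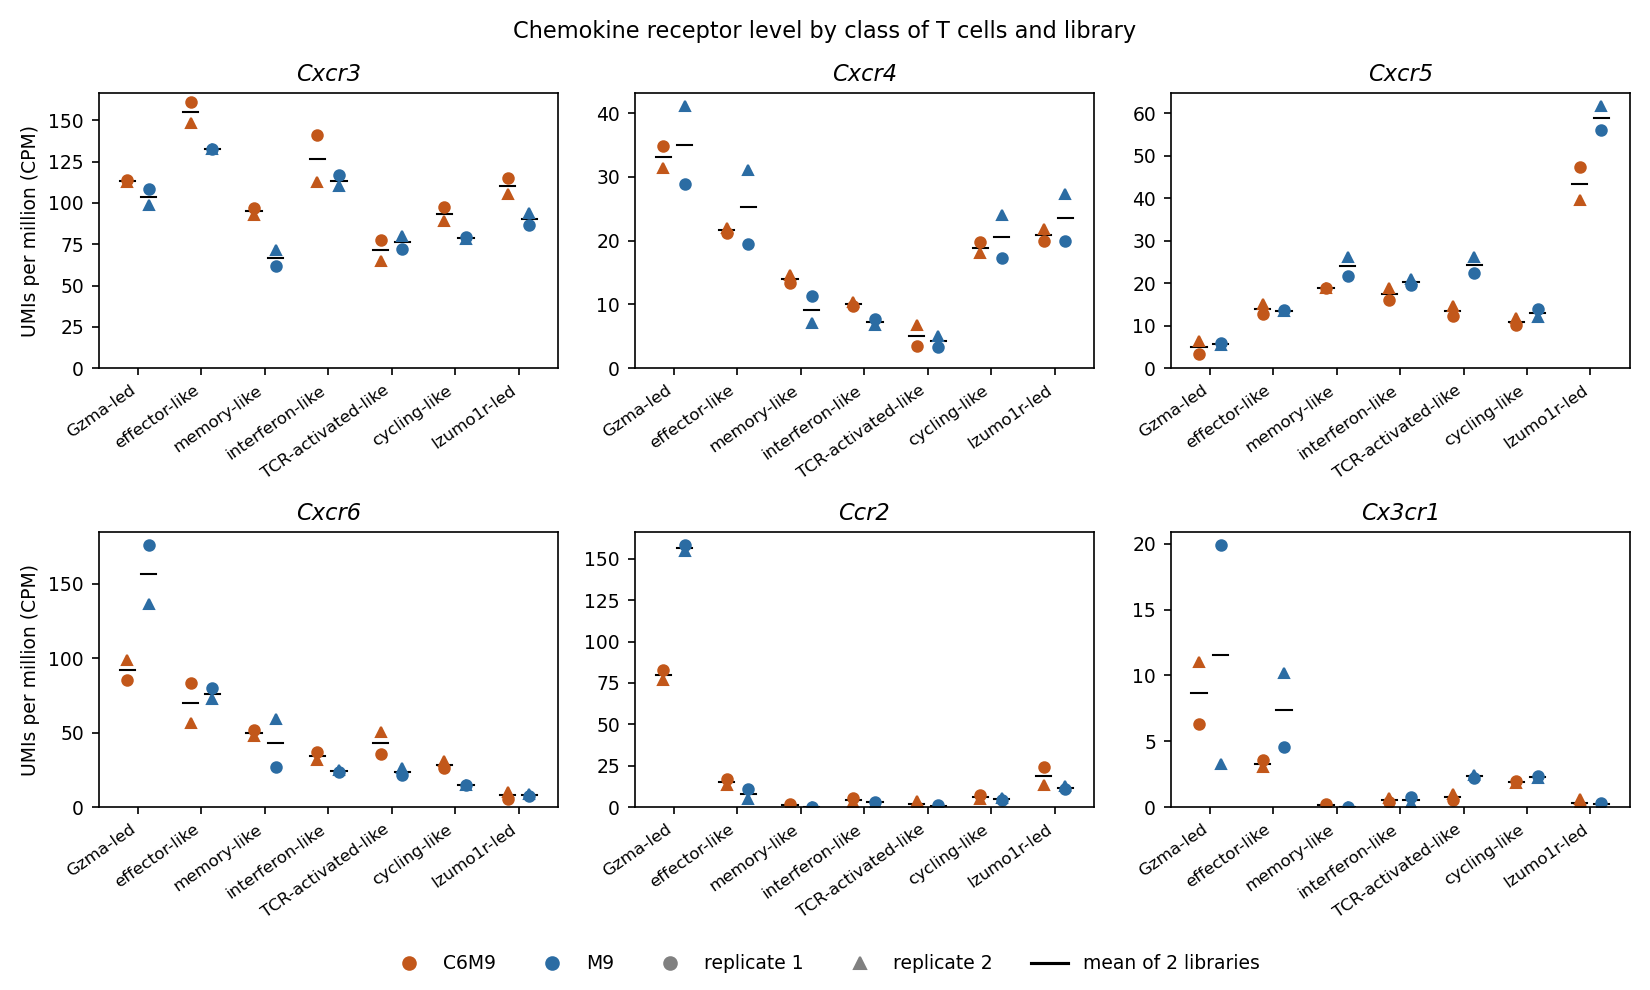
Level of each receptor in the 7 classes of T cells, in UMIs per 1000000 (CPM, linear axes from 0), with 1 point per library, C6M9 left of M9, and a bar for the mean of 2 libraries. Ccr2 stands out in Gzma-led cells (82.8 and 76.7 CPM in C6M9, 158 and 155 CPM in M9) and Cxcr5 in Izumo1r-led cells (47.2 and 39.6 CPM in C6M9, 56.1 and 61.7 CPM in M9).

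Over 27 sums of a class in a library, the log levels of Cxcr5 and Cxcr6 ran against each other (Pearson r = -0.77), and those of Cxcr4 and Ccr2 together (r = 0.77). The genes most like each receptor over these sums, of 5410 compared, were Klrk1 for Cxcr3 (r = 0.89), Cmtm7 for Cxcr4 (0.88), Lax1 for Cxcr5 (0.96), Dnajc15 for Cxcr6 (0.79), Serpinb9 for Ccr2 (0.90) and Cox17 for Cx3cr1 (0.93). Prkch (0.95), Ttc3 (0.94), Fyn (0.94), a kinase of TCR signalling, and Cux1 (0.92) followed Lax1 in likeness to Cxcr5. Sums of 1 library share its depth and its processing, so these are descriptions.

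Within classes, 31 tests of a receptor could be made in 6 classes, and 3 were called. Leaving out M9 replicate 1 gave 8 calls and leaving out M9 replicate 2 gave 5, and these 3 were called in both. Cxcr6 was higher in C6M9 in cycling-like cells, with 26.0 and 31.1 CPM, against 14.7 and 14.8 CPM in M9. The log2 difference was 1.02 ± 0.13 (SE, n = 2 libraries each, adjusted p = 0.0070, edgeR's quasi-likelihood test), in a class where 1.21% of 11918 genes were called. The rise was called in both clusters of that class, at 0.82 in Ccnb2-led cells, where 1.07% of genes were called, and at 1.24 in Hist1h2ap-led cells, where 0.644% were. In TCR-activated-like cells Cxcr6 had 35.8 and 50.2 CPM in C6M9, against 21.7 and 26.0 CPM in M9. The log2 difference was 0.93 ± 0.16 (SE, n = 2 libraries each, adjusted p = 0.0015, edgeR's quasi-likelihood test). In the same class Cxcr5 fell by 0.77 ± 0.17 on the log2 scale, with 12.3 and 14.6 CPM in C6M9, against 22.3 and 26.2 CPM in M9 (SE, adjusted p = 0.0057, edgeR's quasi-likelihood test). There 21.5% of 10386 genes were called, so a call is less unusual than in cycling-like cells.

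TCR-activated-like cells joined a Tnfrsf4-led and an Xcl1-led cluster, and their mix differed: 42 and 25 Tnfrsf4-led and 91 and 91 Xcl1-led cells in C6M9, against 699 and 156 Tnfrsf4-led and 309 and 74 Xcl1-led cells in M9. The Xcl1-led cells could be tested on their own. There Cxcr6 had 36.6 and 53.7 CPM in C6M9, against 13.8 and 19.2 CPM in M9, a log2 difference of 1.57 ± 0.21 that was called. Cxcr5 had 11.3 and 13.0 CPM in C6M9, against 25.3 and 25.7 CPM in M9, and fell by 1.02 ± 0.20 on the log2 scale, also called, where 5.62% of genes were. Cxcr3 (0.54) and Cxcr4 (0.77) were not called there, and Ccr2 and Cx3cr1 did not pass the low-count filter. Tnfrsf4-led cells were too few in C6M9 for a test and showed a smaller difference by value. Their Cxcr6 level was 32.2 and 31.5 CPM in C6M9 and 26.4 and 31.0 CPM in M9, a ratio of 1.11. Their Cxcr5 level was 16.8 and 23.0 CPM in C6M9 and 20.5 and 26.5 CPM in M9, and these groups overlapped.

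The other classes had few calls among all genes: 1.62% in interferon-like, 0.48% in effector-like, 0.222% in Izumo1r-led and 0.0938% in memory-like cells. In interferon-like cells Cxcr6 had 37.0 and 31.9 CPM in C6M9, against 23.5 and 24.5 CPM in M9; the groups did not overlap and the log2 difference of 0.55 missed the threshold (adjusted p = 0.0856, edgeR's quasi-likelihood test). The interval of the Cxcr6 difference ran from -0.35 to 0.31 in effector-like cells, from -0.17 to 0.74 in memory-like cells and from -0.68 to 0.74 in Izumo1r-led cells. In Izumo1r-led cells, where Cxcr5 was highest, its log2 difference was -0.36, with an interval from -0.70 to -0.03 and an adjusted p of 0.504 by edgeR's quasi-likelihood test. The Cxcr5 difference was -0.20 in cycling-like, -0.19 in interferon-like, -0.29 in memory-like and 0.15 in effector-like cells, with 0 calls among these classes. Cxcr3 was higher in C6M9 by point estimate in 5 of 6 classes, and called in 0 of them. The largest Cxcr3 difference was in memory-like cells, with 96.8 and 93.0 CPM in C6M9, against 61.9 and 71.5 CPM in M9 (adjusted p = 0.248, edgeR's quasi-likelihood test). Cxcr4 was higher by point estimate in 3 classes and lower in 3. Ccr2 was higher by point estimate in the 4 classes where it could be tested, from 0.47 in cycling-like to 0.94 in effector-like cells, and called in 0 of them. Cx3cr1 was lower in the 3 where it could be tested, from -0.19 in cycling-like to -1.54 in TCR-activated-like cells, also with 0 calls.

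Whether the difference between the groups itself varied over the 6 classes was tested for each receptor. Cxcr6 was called (adjusted p = 0.0012, edgeR's quasi-likelihood test), and 20.7% of 11535 genes were (2385 genes, and 1032 without C6M9 replicate 2). The Cxcr6 call was lost without C6M9 replicate 2 (adjusted p = 0.215, edgeR's quasi-likelihood test) and without M9 replicate 1 (adjusted p = 0.0700, same test). It was kept without C6M9 replicate 1 (adjusted p = 2.91e-05, same test) and without M9 replicate 2 (adjusted p = 0.0029, same test). Cxcr3 was not called, at an adjusted p of 0.0666 in edgeR's quasi-likelihood test. The adjusted p was 0.153 for Cxcr5, 0.222 for Cxcr4, 0.534 for Cx3cr1 and 0.623 for Ccr2 in edgeR's quasi-likelihood test.

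**Figure D3:**
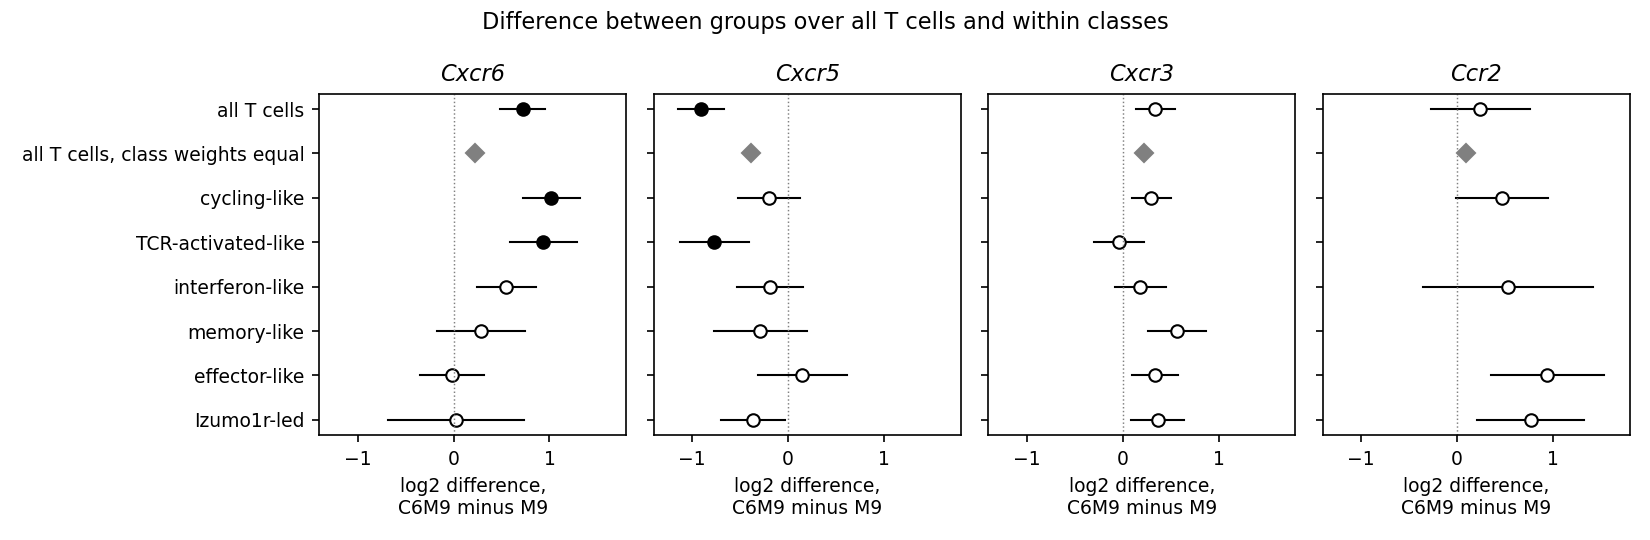
Log2 difference of Cxcr6, Cxcr5, Cxcr3 and Ccr2, C6M9 minus M9, over all T cells and in each tested class, with 95% intervals (edgeR); filled points were called at an adjusted p under 0.05 and grey diamonds give the log2 ratio with equal class weights, which has no test. Cxcr6 lies at 1.02 in cycling-like and 0.93 in TCR-activated-like cells and near 0 in effector-like (-0.02) and Izumo1r-led (0.03) cells.

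Gzma-led cells made up 4.85% and 4.04% of C6M9 cells and 2.90% and 1.17% of M9 cells. Their median depth of 43131.5 and 59854 UMIs per cell in C6M9 and 33823 and 64582 in M9 was above that of each other class in every library. Great depth was not particular to them. The Hist1h2ap-led cluster of cycling-like cells alone had medians of 43972 and 68872.5 in C6M9 and 36224 and 59781 in M9. Barcodes with the highest doublet scores had been left out, and the part of any doublets that were missed was not tested. The Cxcr6 level of Gzma-led cells ran the other way from the cycling-like cells. Their Ccr2 level was likewise lower in C6M9 than in M9, and the Cxcr6 and Ccr2 ratios were 0.587 and 0.509. With 14 cells in M9 replicate 2 these differences carry no test. Cxcr6 was seen at 2000 UMIs in 22.1% and 24.3% of Gzma-led cells in C6M9 and in 26.9% and 35.7% in M9. Ccr2 was seen in 22.9% and 25.7% in C6M9 and in 26.1% and 28.6% in M9, so its shares lay closer together than its summed level.

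Of 18 other chemokine receptor genes, 12 passed the filter on low counts over all T cells; 0 rose and 2 fell, where 1.68% of all genes were called higher and 4.22% lower, with a list median of -0.36 on the log2 scale beside -0.02 for all genes. Ccr6, the receptor for CCL20, fell by 1.48 on the log2 scale at under 2 CPM in every library. Ccr7, which leads T cells into lymph nodes, had 92.4 and 100.9 CPM in C6M9 and 81.8 and 89.7 CPM in M9 and was not called. Of 11 ligands of the 6 receptors, 3 were tested and Cxcl10 fell, with 6.96 and 5.80 CPM in C6M9, against 27.03 and 23.27 CPM in M9. Ligand genes made by other cells are mostly outside what a sort of T cells shows.

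Of 33 tested genes of receptor signalling, 3 were higher, 2 were lower and 28 were not called (median 0.12), beside 1.68% higher and 4.22% lower among all genes. Rasgrp2, an activator of the adhesion switch Rap1, rose by 0.60 and Pik3r5, a regulatory subunit of the PI3-kinase that G proteins switch on, by 0.53. Rgs14 rose by 0.42. Rgs16, which shortens G protein signals, had 3.09 and 5.37 CPM in C6M9, against 26.6 and 13.3 CPM in M9, and fell by 2.20 on the log2 scale. Tiam1, an activator of Rac, had 4.34 and 4.01 CPM in C6M9, against 18.6 and 16.3 CPM in M9, and fell by 1.99.

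The follicular helper list, genes that go with CXCR5 in T cells that help B cells, had 14 of 16 genes tested, of which 9 fell and 1 rose (median -0.64 beside -0.02 for all genes), where 4.22% of all genes fell and 1.68% rose. The CD4 T-like list moved the same way (43.5 and 60.2 CPM in C6M9, 167 and 123 CPM in M9), as did the share of Izumo1r-led cells (5.30% and 5.89% in C6M9, 40.0% and 30.9% in M9), and their part in this result was not tested. Bcl6, a repressor that follicular T cells need, had 5.91 and 7.12 CPM in C6M9, against 16.2 and 18.3 CPM in M9, and fell by 1.32 on the log2 scale. Cd200 fell by 1.97, Tox2 by 1.56 and Maf by 1.55, and Il6ra, a subunit of the receptor for IL-6, rose by 0.51. Several of these genes, Bcl6, Cd200 and Slamf6 among them, are also marks of progenitor exhausted cells. Of the tissue residency list, 11 of 12 genes were tested, 0 rose and 2 fell, beside 1.68% and 4.22% of all genes: Xcl1, a chemokine for cross-presenting dendritic cells, by 1.35 and Ahr, a ligand-activated transcription factor, by 0.82. Of 15 transcription factors tied to the receptors, 2 rose and 2 fell, beside 1.68% and 4.22% of all genes. Tbx21, which encodes T-bet, rose by 0.58 and Klf2, which keeps T cells in circulation, by 0.54; Bcl6 and Eomes fell, Eomes by 1.08. The lists share genes and were chosen with earlier results of these data known.

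Cells with a receptor UMI were then compared with cells without it in the same library, at 2000 UMIs per cell, over 4 libraries and with the receptor itself left out. Cells with Cxcr6 differed from cells without it in 87 of 8937 genes (0.973%), 59 higher and 28 lower; without M9 replicate 1 the number was 33. Ifitm1, an interferon-induced membrane protein, averaged 208 CPM in cells with Cxcr6 and 10.2 CPM in cells without, and was 4.27 ± 0.18 higher on the log2 scale. The granule proteases Gzma (3.56) and Gzmb (2.91), the galectin Lgals3 (2.56), the NK receptor Klre1 (2.13) and Ccr2 (2.64) were higher too, each in 4 of 4 libraries. Among list genes, the residency integrin Itgae (1.78) and the regulators Id2 (1.47) and Zeb2 (1.47) were higher. The lower genes included Izumo1r (-1.14), the integrin Itga4 (-0.96), the progenitor genes Id3 (-0.50) and Slamf6 (-0.55), Eomes (-0.79) and Gpr183 (-0.74), a receptor for oxysterols that guides cells to follicle edges. Kif1b (-1.01) and Rtp4 (-0.97) were lower as well. Ormdl1 (-1.05) and Dido1 (-1.04) were called lower but turned direction at 1000 UMIs.

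Leaving out Gzma-led cells changed a part of this pattern. Without them, Ifitm1 (3.73), Gzmb (2.95), Klre1 (2.07), Gzma (1.94) and Lgals3 (1.39) remained called in cells with Cxcr6. Ccr2 did not, at 1.20 with an adjusted p of 0.663 in edgeR's quasi-likelihood test. Cxcr6 and Ccr2 were also counted in the same cell over all T cells, with Gzma-led cells included, at 2000 UMIs. Both were seen in 17 and 9 cells in C6M9 and 15 and 3 in M9. That was 3.83 and 3.41 times the product of the shares in C6M9 and 5.68 and 3.43 times in M9.

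Ccr2 was seen in too few cells at 2000 UMIs and was compared at 4000. Cells with Ccr2 differed in 719 of 9912 genes (7.25%), at a greater depth than the other receptors, with 390 higher and 329 lower. Gzma averaged 2374 CPM in cells with Ccr2 and 41.5 CPM in cells without, and was 5.75 ± 0.10 higher on the log2 scale. Ifitm1 (5.36), Gzmb (4.84), Ifitm2 (4.81), Anxa1 (4.62) and Lgals3 (3.89) were also higher. Of other chemokine receptors, Cx3cr1 (4.07) and Cxcr6 (2.03) were higher and Ccr7 (-1.74) was lower, and the oxysterol receptor Gpr183 (0.55) was higher. The collagen-binding integrin Itga1 (5.88), Prdm1 (2.93), which encodes the effector regulator Blimp-1, Id2 (1.98) and Tbx21 (1.36) were higher. Of the tissue residency list, Itgae (2.03) and Runx3 (0.38) were also higher, each in 3 of 4 libraries. Xcl1 (-1.20) and Cd69 (-0.80) of that list were lower, each in 4 of 4 libraries. Tcf7 (-0.92), which encodes the progenitor regulator TCF-1, and Id3 (-0.79) were lower, as were Nrn1 (-1.84), Dapl1 (-1.58), Izumo1r (-1.52), the IL-6 co-receptor Il6st (-1.45) and Bach2 (-1.42), a repressor of effector genes. Gzma, Ifitm1, Gzmb, Lgals3, Ifitm2 and Anxa1 are also among the 10 leading genes of the Gzma-led cluster, and the comparison without that cluster was not run for Ccr2.

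Cells with Cxcr5 differed in 119 of 9019 genes (1.32%), 29 higher and 90 lower; without M9 replicate 1 the number was 23. Gzma averaged 10.6 CPM in cells with Cxcr5 and 110 CPM in cells without, and was lower by -3.77 ± 0.30 on the log2 scale. Gzmb (-3.45), Lgals3 (-2.22) and S100a4 (-1.82), and the mitosis genes Tpx2 (-1.94), Cdca3 (-1.90) and Hmmr (-1.76), were lower too. 1700019D03Rik (1.18), Slamf7 (0.82), Ctla2a (0.69) and Rasgrp1 (0.66), a Ras activator of TCR signalling, were higher. Eomes (0.76, in 3 of 4 libraries), Xcl1 (0.62), Gpr183 (0.52) and Sh2d1a (0.36), which encodes the SLAM adaptor SAP, were higher too. Slamf7 and Ctla2a are among the 10 leading genes of the Izumo1r-led cluster. Abcg1 (0.77) and Ikzf3 (0.65) were called higher and turned direction at 1000 UMIs. Without cycling-like cells the number of genes called dropped to 35. Cxcr6 was lower by -1.12 in cells with Cxcr5, without a call (adjusted p = 0.126, edgeR's quasi-likelihood test).

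Cells with Cxcr4 differed in 83 of 8882 genes (0.934%), 25 higher and 58 lower; leaving out C6M9 replicate 1 gave 23 genes, leaving out M9 replicate 1 gave 33 and leaving out M9 replicate 2 gave 52. Among the 6 higher genes named by size, 4 were histone genes, and no enrichment was tested. Hist1h1b averaged 438 CPM in cells with Cxcr4 and 186 CPM in cells without, a log2 difference of 1.04 ± 0.11. Hist1h2ab (1.71), Hist1h3c (1.48), which turned direction at 1000 UMIs, Hist1h2ae (1.12), 1500009L16Rik (1.13) and the mitotic inhibitor Fbxo5 (1.04) were also higher. Lower genes were Isg15 (-1.19), Ifit1 (-1.96), which turned direction at 1000 UMIs, both interferon-induced, and Cd160 (-1.07), Nrn1 (-0.96) and Bcl2a1b (-0.93). Trav14-1 (-0.94), a TCR variable gene, turned direction at 4000 UMIs. Irf4, a transcription factor that TCR signals induce, averaged 2.19 CPM in cells with Cxcr4 and 23.9 CPM in cells without.

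Cells with Cxcr3 differed in 64 of 8967 genes (0.714%), 50 higher and 14 lower; the number was 37 without C6M9 replicate 1 and 13 without M9 replicate 1. S100a6 averaged 650 CPM in cells with Cxcr3 and 445 CPM in cells without, a log2 difference of 0.57 ± 0.04. S100a4 (0.62), Plac8 (0.65), the NK receptor Klrc1 (0.68) and Id2 (0.47) were higher, and Tmem203 (0.71) was called but turned direction at other depths. Lef1 (-0.36), a partner of TCF-1, Ikzf2 (-0.36), Gadd45b (-0.57), Ncl (-0.23), G3bp1 (-0.26) and Ptma (-0.15) were lower. Xcl1 (-0.52) was called lower too, in 3 of 4 libraries. Cx3cr1 was seen in 3 cells of M9 replicate 2 at 2000 UMIs and was not compared.

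**Figure D4:**
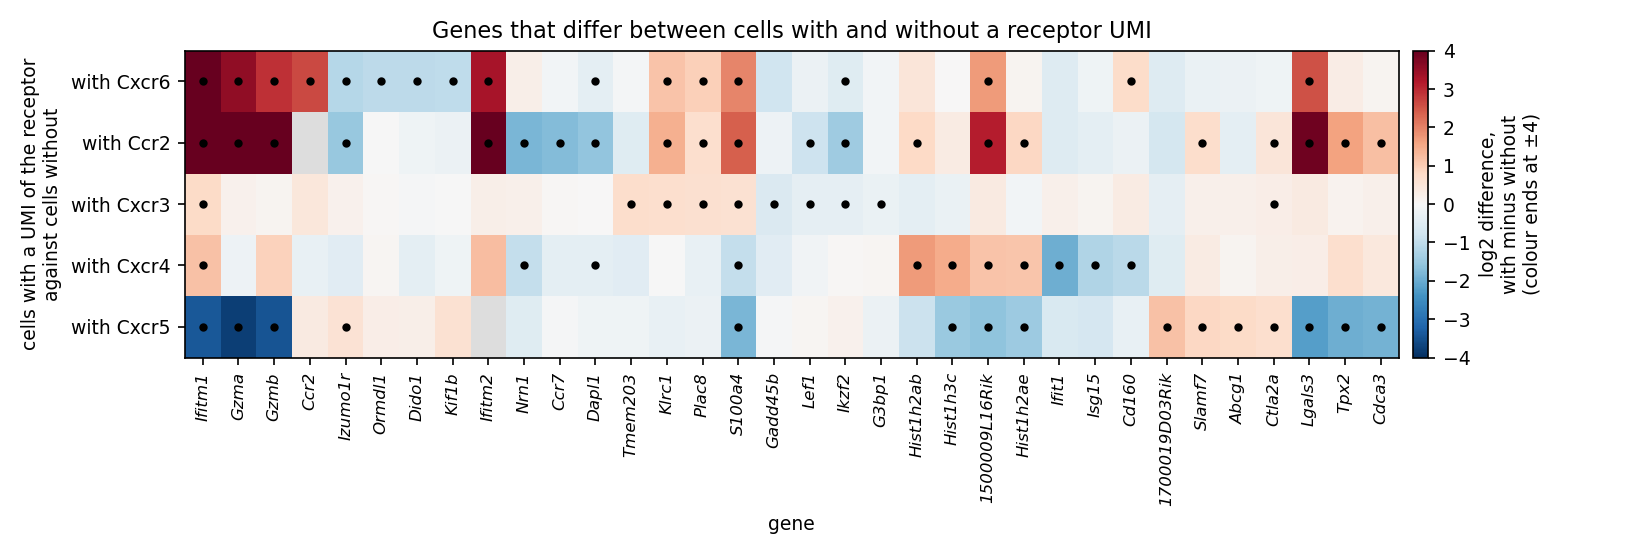
Log2 difference (colour, ending at ±4; red higher in cells with the receptor, blue lower; grey not tested) of genes in columns between cells with and without a UMI of the receptor in rows, with a dot where called at an adjusted p under 0.05. Gzma, Gzmb and Ifitm1 are red for Cxcr6 (3.56, 2.91 and 4.27) and Ccr2 (5.75, 4.84 and 5.36), and Gzma and Gzmb are blue for Cxcr5 (-3.77 and -3.45).

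At 2000 UMIs, 67.5% and 69.9% of C6M9 cells and 72.4% and 73.6% of M9 cells showed none of the 6 receptors, and 4.02% and 3.94% of C6M9 cells and 3.55% and 3.69% of M9 cells showed 2 or more. With all UMIs, 47.1% and 57.9% of C6M9 cells and 39.1% and 54.9% of M9 cells showed 2 or more, so these shares follow depth. The median depth was 13993 and 21464 UMIs per cell in C6M9 and 13200 and 20024 in M9.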

How the data were processed

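The 4 deposited matrices hold UMI counts of each gene in each barcode, not normalized by the authors. Cell Ranger 6.0.0 and mm10 were used, per the submitters' processing notes, and no annotation release or intron setting is given in the sources used here. Barcodes were kept at 500 or more genes, 1000 or more UMIs and 10% or less mitochondrial UMIs. Scrublet's automatic threshold marked under 0.5% of each library, so the highest doublet scores were left out at 0.8% per 1000 barcodes. Cells were clustered (scanpy 1.11.5, 2000 variable genes without chemokine receptors, 30 principal components, 15 neighbours, Leiden resolution 0.6) and classes were named from marker lists. The 127 B cell-like cells were left out. Gzma-led cells had 14 cells in M9 replicate 2, under the minimum of 50 cells, and were not tested.

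Levels are UMIs per 1000000 of summed counts (CPM), with mean ± SD over 2 libraries. Differences are C6M9 minus M9 from edgeR 4.0.16 (R 4.3.3, TMM, filterByExpr, quasi-likelihood test, two-sided) on UMIs summed per library, with Benjamini-Hochberg adjustment over all genes tested at 0.05. Differences between classes were tested on the class sums with library and class as terms. For genes that go with a receptor, each cell was thinned to 2000 UMIs, and sums over cells with and without a UMI of the receptor were compared with library as a block. Ccr2 missed the minimum of 20 cells per library there and was run at 4000 UMIs, a choice made after seeing the data. Cells were thinned with seed 11. On simulated counts with 100 genes changed by each fold, the all-cell test recovered 57% at 1.5-fold and 75% at 2-fold. Alternatives were DESeq2 1.42.0, other scalings, filters, cell sets and left-out libraries.

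The 6 receptors and all lists were chosen with earlier results of these data known, and the Gzma-led cluster was set apart after the clusters had been seen. The 6 receptors are given whether or not they were called, in part as counts or ranges. For each list the text names up to 4 genes with the largest difference among those called. For cells with a receptor it names up to 6 genes up and 6 down, at a mean of at least 20 CPM and moved alike in all 4 libraries. It adds list members that were called, which need not have moved alike in all 4 libraries. Some genes picked by these rules are not reported here. Other named results were chosen after their values were seen. Coordinates are those of GENCODE mouse release M21 (GRCm38), matched by gene identifier. Like-numbered libraries did not deviate together (r = -0.07 across 13652 genes, which are not independent), so replicate numbers were not used as pairs.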

Additional observations from a re-analysis of the deposited data

Results flagged for a closer look

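The difference between the groups in Cxcr6 varied over the 6 tested classes (adjusted p = 0.0012, edgeR's quasi-likelihood test over class sums). The same test called 20.7% of 11535 genes. Within classes, the Cxcr6 difference was called in cycling-like and TCR-activated-like cells. Its point estimate was near 0 in effector-like cells (interval from -0.35 to 0.31) and Izumo1r-led cells (interval from -0.68 to 0.74). Izumo1r-led cells held 9 and 17 Cxcr6 UMIs in C6M9, so a change in either direction could be missed there. The call for variation between classes was lost without C6M9 replicate 2 and without M9 replicate 1.

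In Gzma-led cells the Cxcr6 level of both C6M9 libraries lay below both M9 libraries (ratio 0.587), while in interferon-like, TCR-activated-like and cycling-like cells both lay above. The Ccr2 level did the same in Gzma-led cells (ratio 0.509), while in effector-like and Izumo1r-led cells both C6M9 libraries lay above both M9 libraries. These differences between classes were not tested, since Gzma-led cells had 140 and 70 cells in C6M9 and 119 and 14 cells in M9. Over all T cells, 55.3% of 13652 genes had groups that did not overlap, and that share was not computed within classes.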

How the results depend on the processing

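Over all T cells, Cxcr6 (log2 difference 0.61 to 1.27) and Cxcr5 (-2.15 to -0.81) kept direction and call under 13 tested alternatives, which do not include the crossed pairing, and equal class weights, which carry no test, moved them to 0.23 and -0.39. The same weights gave 0.22 for Cxcr3, -0.0045 for Cxcr4 and -0.68 for Cx3cr1. Every weighted value includes Gzma-led cells, of which M9 replicate 2 had 14. Cxcr3 passed the threshold with DESeq2 (0.36), with no filter on low counts (0.36), without cells with UMIs of 6 B cell genes (0.37) and without cycling-like cells (0.38), and ranged from 0.25 to 0.43 with 1 library left out. With 1 library left out, Ccr2 ranged from -0.046 to 0.70 and Cx3cr1 from -0.36 to 0.17. Without cells with B cell UMIs, which left 1752 cells, Ccr2 was called at 1.06 and Cx3cr1 stood at 0.94. Of 805 genes called, the number was 1942 with no filter, 1256 without cells with B cell UMIs, 1366 without cycling-like cells and 316 to 1725 with 1 library left out. The causes of these shifts were not tested. With 2 libraries a group, changes of 1.5-fold are often missed at this depth.

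Like-numbered libraries showed no shared deviation, so the replicate block is only an alternative. With it 950 genes were called, 780 of them among the 805; Cxcr3 passed at 0.34, and 5 class tests were called, adding Ccr2 in effector-like (1.01) and Cx3cr1 in TCR-activated-like cells (-1.59); Cxcr6 in Izumo1r-led cells turned to -0.011. The crossed pairing, added after seeing the data, gave 1673 calls.

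Within classes, the 3 calls held under every alternative run. The number of class calls was 4 to 8 with 1 library left out. Of the class values under alternatives, 194 kept direction and call, 11 passed the threshold and 22, of differences that were not called, turned direction. At Leiden resolution 0.4, Cxcr3 and Cxcr4 in TCR-activated-like cells stood at 0.099 and -0.081 and Cxcr6 in Izumo1r-led cells at -0.068. At resolution 1.0, Cxcr3 in TCR-activated-like cells stood at 0.011, Cxcr5 in memory-like cells at 0.21 and Ccr2 in interferon-like cells at -0.62. In single clusters, Cxcr4 was at 0.032 (Hist1h2ap-led), Cx3cr1 at 0.035 (Ccnb2-led) and Cxcr3 at 0.54 (Xcl1-led). With 1 library left out, Cxcr4 ranged from -0.25 to 0.17 in cycling-like, -0.11 to 0.80 in TCR-activated-like, -0.35 to 0.25 in effector-like and -0.29 to 0.10 in Izumo1r-led cells. Cxcr6 ranged from -0.32 to 0.24 in effector-like, -0.16 to 0.91 in memory-like and -0.46 to 0.38 in Izumo1r-led cells, and Cxcr3 from -0.18 to 0.12 in TCR-activated-like cells. For the variation between classes, 1032 to 1730 genes were called against 2385, and the adjusted p ranged from 2.91e-05 to 0.215 for Cxcr6 and from 0.0266 to 0.398 for Cxcr3 (edgeR's quasi-likelihood test). Levels by class moved beyond the spread between libraries in 9 of 42 cases when receptors were kept among the variable genes.

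The number of genes that go with a receptor varied with depth. At 1000 UMIs, at 4000 UMIs and with all UMIs summed it was 10, 192 and 471 for Cxcr3, 139, 181 and 893 for Cxcr4, 15, 621 and 1154 for Cxcr5 and 13, 161 and 284 for Cxcr6. Without cycling-like cells it was 35 for Cxcr5 and 183 for Cxcr6, and without Gzma-led cells 51 for Cxcr4 and 49 for Cxcr6. With 1 library left out it was 13 to 51 for Cxcr3, 23 to 58 for Cxcr4, 23 to 116 for Cxcr5 and 33 to 72 for Cxcr6. At 1000 UMIs, Tmem203 (-0.084) turned for Cxcr3, Hist1h3c (-0.23) and Ifit1 (0.055) for Cxcr4, Abcg1 (-1.29) and Ikzf3 (-0.33) for Cxcr5, and Ormdl1 (0.45) and Dido1 (0.073) for Cxcr6. At 4000 UMIs, Tmem203 (-0.058) and Trav14-1 (0.22) turned. Of other gene and setting pairs, 292 kept their call and 119 lost it with direction kept. For shares of cells at 1000 UMIs, at 4000 UMIs and unthinned, the log2 ratio of C6M9 to M9 was -0.18, -0.065 and 0.27 for Cxcr4, -1.12, -1.15 and -0.49 for Cxcr5, and -0.041, -0.089 and 0.51 for Ccr2. Cxcr6 and Ccr2 were seen together, at 1000 UMIs, in 1 and 4 cells of C6M9 (1.17 and 6.21 times the product of their shares) and 4 and 0 cells of M9 (4.07 and 0 times), a mean of 2.86 that rests on few cells.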
